A study of Mus musculus with 9 samples.

Results

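The respiratory chain genes described here were chosen by name. They are the genes of the mRNA tables whose symbol marks a subunit of the mitochondrial respiratory chain or of ATP synthase, together with cytochrome c (Cycs) and the complex I assembly factors Ndufaf1 to Ndufaf7, whose symbols share the prefix of the complex I subunits. The rule found 107 of the 21950 genes, of which 13 are encoded by mitochondrial DNA (mtDNA) and 94 by nuclear chromosomes. The renal cortex of 3 control mice (nondiabetic db/m littermates), 3 dbdb mice (db/db, vehicle by gavage) and 3 dbR mice (db/db, rosiglitazone at 20 mg/kg/day by gavage) was sequenced, 1 library per mouse. All were male mice of the C57BL/KsJ strain and 15 weeks of age. The db/db mice were given vehicle or drug for 8 weeks, from 7 to 15 weeks of age, and the paper does not state that the control mice were given vehicle. The db allele of Lepr removes the signalling form of the leptin receptor in every cell of a db/db mouse, and db/m mice carry 1 copy of it. No db/m mice given rosiglitazone were analysed here, so an effect of the drug that depends on diabetes cannot be told apart from one that does not. Rosiglitazone is an agonist of the nuclear receptor PPARγ.

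The respiratory chain passes electrons from NADH and succinate through complexes I to IV to oxygen and pumps protons across the inner mitochondrial membrane, and ATP synthase (complex V) uses the proton gradient to make ATP. Complexes I, III, IV and V are built from subunits of both genomes, whereas every subunit of complex II is nuclear. The tubules of the renal cortex, the proximal tubule above all, are rich in mitochondria and depend on oxidative phosphorylation for the reabsorption of solutes.

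The files hold FPKM, which counts fragments per length of transcript and per number of fragments mapped in a library, and the values of all transcripts of a gene were summed. Read counts cannot be had from them, but the ratio of the low values between libraries gave relative depths of 0.913 to 1.14, with control replicate 1 as 1. Summed mRNA FPKM lay between 594838 and 730057 per library, and it was lower in every dbdb library than in every control library. The dbR replicate 2 library held the highest value of the 9 for 8 of the 13 mtDNA-encoded genes and for 38 of the 91 nuclear-encoded genes that passed the filter, and control replicate 2 the lowest for 41 of those 91. Lepr mRNA was lower in every dbdb and dbR library than in every control library (log2 fold change -1.31 in both comparisons with control, adjusted p from limma 0.00430 and 0.00453). Markers of the renal cortex were present in every library, with a summed FPKM of 4016 to 6365 for 10 proximal tubule genes. Skeletal muscle markers, of another tissue rich in these RNAs, summed to at most 0.132 FPKM in any library. Of 8 markers of white or brown adipocytes, Fabp4, which endothelium also expresses, held nearly all of the sum, which was 31.4 to 42.8 FPKM in the control libraries, 22.0 to 33.0 in the dbdb libraries and 43.5 to 46.5 in the dbR libraries. The defining adipocyte genes Adipoq and Plin1 and the brown fat gene Ucp1 were at 0.515 FPKM, 0.105 FPKM and 0.0769 FPKM at most.

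Of all mRNA FPKM in a library, 26.9% to 32.8% came from the 13 mtDNA-encoded genes. Subunits of complex I (mt-Nd1 to mt-Nd6 and mt-Nd4l) had a mean FPKM of 779 for mt-Nd3 to 18907 for mt-Nd1, and mt-Cytb of complex III one of 23399. In complex IV, whose catalytic core is made of 3 mtDNA-encoded subunits, the levels were far apart. mt-Co1 had a mean FPKM of 27154, whereas mt-Co2 had 7.97 and mt-Co3 had 8.60. The same held for the mtDNA-encoded subunits of ATP synthase, with 88249 for mt-Atp8 and 50.8 for mt-Atp6. These 4 genes lie next to each other on chrM, in the order mt-Co2, mt-Atp8, mt-Atp6 and mt-Co3, and mt-Atp6 and mt-Co3 share 1 base. mt-Atp8 (chrM:7766-7969) and mt-Atp6 (chrM:7927-8607) overlap by 43 bases, which the following sequences of GRCm38 give in capitals, 5′ to 3′ on the plus strand, since reads from these bases belong to both genes.
mt-Atp8, last bases (chrM:7899-7969): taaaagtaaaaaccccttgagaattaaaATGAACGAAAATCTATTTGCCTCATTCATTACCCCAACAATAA
mt-Atp6, first bases (chrM:7927-7997): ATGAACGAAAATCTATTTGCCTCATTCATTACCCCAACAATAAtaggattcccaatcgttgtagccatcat
mt-Atp8 is annotated with 204 bases, the shortest of the 13 genes, and held 45.7% of their summed FPKM but 12.2% once each FPKM was multiplied by the length of its gene. How the reads of this stretch were divided between overlapping and neighbouring genes was not tested here, so sums over mtDNA-encoded genes are given with and without mt-Atp8.

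**Figure D1:**
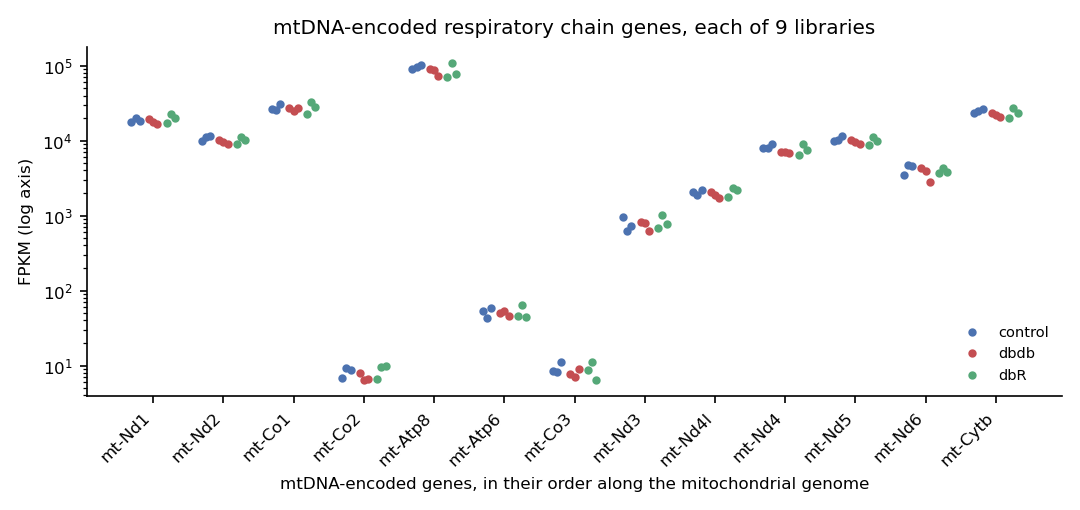
FPKM (log axis) of the 13 mtDNA-encoded genes in their order along the mitochondrial genome, with 1 point per library and 3 libraries each of control, dbdb and dbR mice. Levels run from 7.97 (mt-Co2, mean of all libraries) to 88249 (mt-Atp8), and for 12 of the 13 genes the dbdb and control libraries overlap, while 21.2% of all genes lie higher and 21.2% lower without overlap.

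Between dbdb and control mice, none of the 13 mtDNA-encoded genes was differentially expressed (limma on log2(FPKM + 0.1), two-sided, Benjamini-Hochberg adjustment over 14537 genes, adjusted p under 0.05), and none had an unadjusted p under 0.05. Of all genes tested, 13.1% were called higher and 13.4% lower, and 19.1% and 19.7% had an unadjusted p under 0.05. The log2 fold changes of the 13 genes lay between -0.26 and -0.025 with the FPKM as deposited, all below 0 (median -0.17, against -0.0030 for all genes), while with every library scaled to the same sum of nuclear mRNA 6 of the 13 were above 0 and quantile normalization, which gives every rank a fixed value, called 3 of them higher (mt-Nd4, mt-Nd5 and mt-Co1), beside 13.1% of all genes higher and 12.5% lower. Scaling to the nuclear sum also moved the median of all genes, to 0.15, and relative to all genes the mtDNA-encoded median was -0.17 with the deposited values and -0.16 with the scaled ones. The deposited median was -0.079 without control replicate 3 and -0.097 without dbdb replicate 3, with 2 and 3 of the 13 above 0. The 95% intervals of the 13 differences reached from -1.09 at the lowest to 0.68 at the highest.

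mt-Nd4, a core subunit of the membrane arm of complex I, was the mtDNA-encoded gene with the lowest fold change. Its FPKM was 8080.5, 8100.1 and 8921 in the control mice, 7156, 6982 and 6748 in the dbdb mice and 6525, 8886 and 7543 in the dbR mice (log2 fold change -0.26, standard error 0.16, adjusted p = 0.247 in dbdb vs. control). Every dbdb library was below every control library, and the dbR libraries spread over both. mt-Cytb, the mtDNA-encoded subunit of complex III, had an FPKM of 23054, 24501 and 26617 (control), 23095, 21790.4 and 20632 (dbdb) and 20228, 27118 and 23557 (dbR) (95% interval of the log2 fold change in dbdb vs. control -0.68 to 0.33). The highest and the lowest of these 9 values were both in dbR mice. mt-Co1, the catalytic subunit of complex IV, had an FPKM of 26521, 25703 and 30600.5 in the control mice, 27036, 24914 and 27098 in the dbdb mice and 22341, 32417 and 27753 in the dbR mice, with overlapping groups (log2 fold change -0.064, standard error 0.25, adjusted p = 0.875 in dbdb vs. control). mt-Nd6, which alone of the 13 is read from the other strand and shares 14 bases with mt-Nd5, stood at 3474, 4689 and 4586 (control), 4286, 3946 and 2820.2 (dbdb) and 3671, 4291 and 3799 (dbR). It was lowest in dbdb replicate 3, and its level as a percentage of mt-Nd5 was 40.2 ± 5.48 for control, 38.2 ± 6.18 for dbdb and 39.3 ± 2.16 for dbR libraries (SD, n = 3 each).

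In dbR vs. dbdb, none of the 13 was called either, nor had an unadjusted p under 0.05, beside 0.564% of all genes called higher and 0.179% lower, and 9.43% and 8.05% at that unadjusted p. The log2 fold changes lay between 0.023 and 0.29 with the deposited FPKM, and the median was 0.11, while 9 of the 13 were above 0 after scaling to the nuclear sum. That median rests on dbR replicate 2, and without this library it was -0.014. The coefficient of variation between libraries of a group had a median over the 13 genes of 15.5% in dbR mice, 8.62% in dbdb mice and 7.88% in control mice. In dbR vs. control none was called with the deposited FPKM (4 of 13 above 0, median -0.073, none at an unadjusted p under 0.05), beside 12.3% of all genes called higher and 11.8% lower. At an unadjusted p under 0.05 all genes gave 18.6% higher and 18.2% lower there. The sign of this median was not stable, since 9 of the 13 were above 0 after scaling to the nuclear sum (median 0.022), and it was 0.053 without control replicate 3 and 0.034 without dbR replicate 1, against -0.17 without dbR replicate 2. Quantile normalization called mt-Co1 higher, where 23.0% of all genes were called in either direction.

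The ratio between the genomes does not depend on any factor by which a library is scaled. The summed FPKM of the 13 mtDNA-encoded genes over that of the 94 nuclear-encoded genes was 6.60, 7.33 and 6.88 in the control mice, 6.01, 6.25 and 5.94 in the dbdb mice and 5.54, 6.89 and 5.61 in the dbR mice. Every dbdb library lay below every control library. This ratio was not tested, since its genes were chosen with earlier results of these data known, and 3 libraries a group are few. Of the dbR libraries 2 were the lowest of the 9, and dbR replicate 2 lay within the control range. Without mt-Atp8 the ratio was 3.50, 3.86 and 3.67 in the control mice, 3.22, 3.31 and 3.35 in the dbdb mice and 3.12, 3.63 and 3.22 in the dbR mice, and again the dbdb libraries lay below the control libraries. Within complex III, mt-Cytb over its 9 nuclear-encoded partners gave 5.81 ± 0.486 for control, 4.91 ± 0.138 for dbdb and 5.04 ± 0.396 for dbR libraries (SD, n = 3 each). For complex IV, mt-Co1 over the nuclear-encoded subunits gave 3.28 ± 0.137, 3.08 ± 0.299 and 2.89 ± 0.326 (SD, n = 3 each), with overlapping groups for dbdb vs. control.

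**Figure D2:**
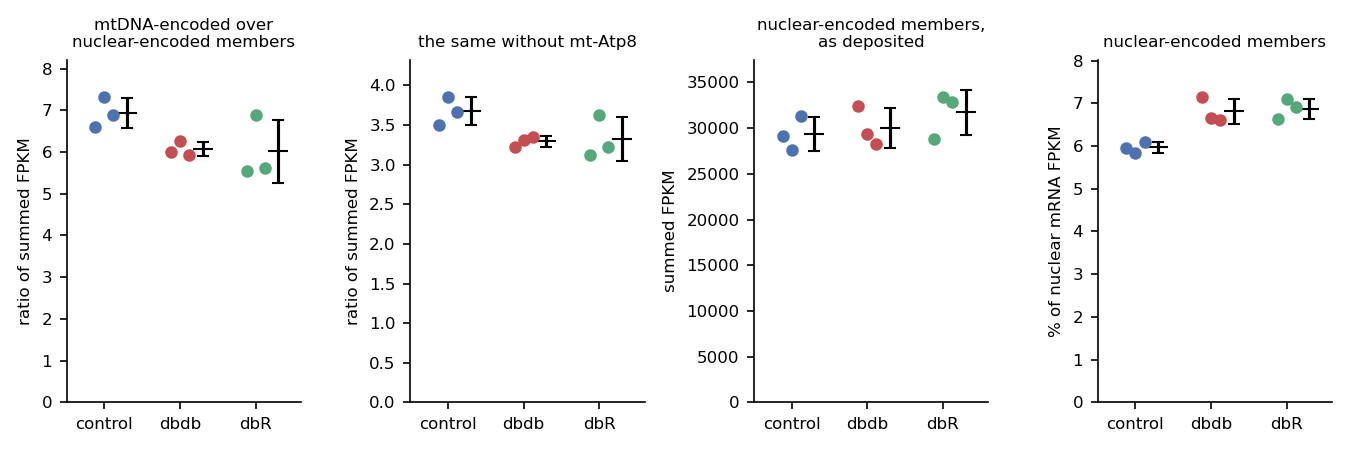
From left to right, the ratio of the summed FPKM of mtDNA-encoded to nuclear-encoded genes, the same ratio without mt-Atp8, the summed FPKM of the nuclear-encoded genes, and their share of nuclear mRNA FPKM in percent. Each point is a library of control, dbdb or dbR mice, and the bar beside the points is the mean ± SD (n = 3). The ratio is 5.94 to 6.25 in dbdb and 6.60 to 7.33 in control libraries, and the summed FPKM of the nuclear-encoded genes overlaps between all groups.

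Summed over the 94 nuclear-encoded genes, the FPKM was 27634 to 31348 in the control libraries, 28263 to 32432 in the dbdb libraries and 28851 to 33441 in the dbR libraries, so the groups overlapped. As a share of nuclear mRNA FPKM, the same genes made up 5.84% to 6.10% in the control libraries, 6.62% to 7.16% in the dbdb libraries and 6.63% to 7.09% in the dbR libraries, and here both db/db groups lay above the control group. Kap, an androgen-regulated gene of the proximal tubule with the largest fall in this sum, went from a mean FPKM of 38867 in control to 5267 in dbdb mice, which is 65.5% of the fall of the nuclear sum. In tissue RNA, fewer cells of a type and less RNA per cell cannot be told apart, and marker genes of several cell types also moved. Marker genes were called higher for the collecting duct (5 of 6), for the thick ascending limb and distal tubule (3 of 6) and for podocytes (3 of 6), and lower for leukocytes (5 of 8), endothelium (3 of 6), fibroblasts and smooth muscle (1 of 6) and adipocytes (1 of 3) in dbdb vs. control, with 0 of 5 for erythrocytes, where 13.1% of all genes were called higher and 13.4% lower. Proximal tubule markers gave 3 of 10 higher and 1 lower. Their summed FPKM was 4016 to 4289 in the control libraries, 4714 to 6365 in the dbdb libraries and 5567 to 5571 in the dbR libraries, and the part of these shifts in the results below was not tested.

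Of the 94 nuclear-encoded genes 91 passed the filter of a mean FPKM of 0.1. The exceptions were Cox7b2 and Cox8c, isoforms known from testis, and Cox8b, known from muscle and brown fat. With the deposited FPKM, 7 of the 91 were differentially expressed in dbdb vs. control, 3 higher and 4 lower, which is a smaller share than that of all genes (13.1% higher and 13.4% lower). Their median log2 fold change was 0.025, with 55 of 91 above 0. Single libraries turned its sign, since it was -0.018 without control replicate 2 (40 of 91 above 0) and -0.020 without dbdb replicate 1 (41 of 91), against 0.080 without control replicate 3. The libraries of the groups did not overlap for 10 higher and 9 lower genes, beside 21.2% of all genes in each direction. Scaling to the same nuclear mRNA sum turned this into 42 higher and 2 lower, beside 24.0% and 6.65% of all genes, and into 20 higher and 4 lower without Kap in that sum (14.3% and 9.89% of all genes), a setting added once the values were known. Relative to the median of all genes, the nuclear-encoded median was 0.028 with the deposited values and 0.035 after scaling to the nuclear sum. Of the 7 genes 5 were called with the deposited FPKM and under all 5 other scalings (to the nuclear sum, the nuclear sum without Kap, the total sum and the 75th percentile, and quantile normalization), namely Ndufa7, Uqcrc1, Cyc1, Ndufa4 and Cycs.

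**Figure D3:**
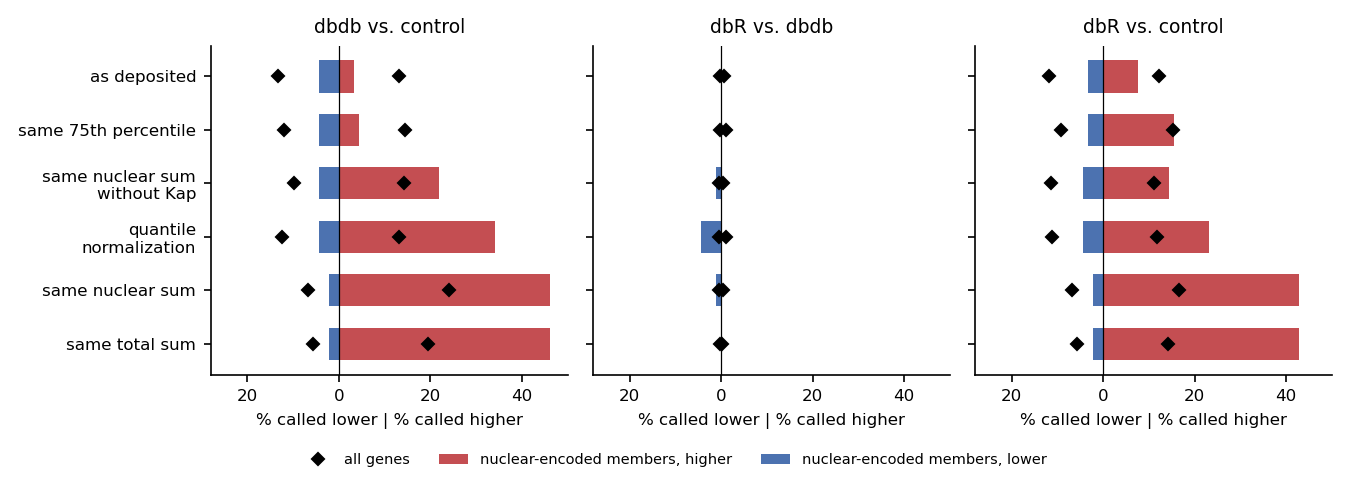
Percent of the 91 nuclear-encoded genes called higher (red, to the right) or lower (blue, to the left) at an adjusted p under 0.05 under 6 scalings of the libraries, with the percent of all 14537 genes as black diamonds, for each comparison. In dbdb vs. control, 3 genes are higher with the FPKM as deposited and 42 with the same nuclear or total sum, while in dbR vs. dbdb no scaling gives more than 4 calls.

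Cycs encodes cytochrome c, the small haem protein that carries electrons from complex III to complex IV and that starts apoptosis when it leaves the mitochondrion. Its FPKM was 138, 137 and 161 in the control mice, 111, 105 and 99.4 in the dbdb mice and 92.1, 112 and 107 in the dbR mice. All db/db libraries, treated or not, lay below all control libraries, and the dbdb and dbR groups overlapped. The level fell from 145 ± 13.9 to 105 ± 5.90 in dbdb mice (SD, n = 3 each, log2 fold change -0.46, standard error 0.090, adjusted p = 0.00478), and the call held with each library left out in turn (adjusted p 0.00307 to 0.0176). In dbR vs. control it fell as well (log2 fold change -0.49, standard error 0.090, adjusted p = 0.00392), and between dbR and dbdb the 95% interval of the log2 difference was -0.23 to 0.18. Cycs lies at chr6:50562563-50566538 (GRCm38). It has processed copies elsewhere in the genome, and how reads shared with a copy were assigned was not tested.

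Cyc1 and Uqcrc1 belong to complex III, which hands electrons to cytochrome c, and both rose in dbdb mice. Cyc1, the haem-carrying cytochrome c1, had an FPKM of 217, 187 and 219.6 (control), 248, 251 and 247 (dbdb) and 216, 211 and 216 (dbR). The dbdb libraries were above all others, and with the deposited FPKM the dbR libraries fell within the control range (log2 fold change 0.27, standard error 0.068, adjusted p = 0.0180 in dbdb vs. control). Without dbdb replicate 2 the adjusted p was 0.0566. Scaled to the nuclear mRNA sum, Cyc1 was at 206, 183 and 198 (control) and 230, 208 and 211 (dbR), with every dbR library above every control library. Uqcrc1, a core protein on the matrix side of the complex, had an FPKM of 203, 181 and 191 in the control mice, 235, 233 and 226 in the dbdb mice and 196, 186 and 197 in the dbR mice, with the dbdb libraries again above the rest (log2 fold change 0.27, standard error 0.060, adjusted p = 0.00827, and 0.00998 to 0.0330 with each library left out). Uqcrc2, the partner of Uqcrc1 in the core, stood at 256, 249 and 262 (control), 255, 239 and 229 (dbdb) and 232, 265 and 265 (dbR) (log2 fold change -0.086, standard error 0.071, adjusted p = 0.410), and the ratio of Uqcrc1 to Uqcrc2 was 0.749 ± 0.0373 for control, 0.961 ± 0.0340 for dbdb and 0.766 ± 0.0745 for dbR libraries (SD, n = 3 each). Cyc1 relative to Cycs went from 1.43 ± 0.123 in control to 2.37 ± 0.127 for dbdb and 2.08 ± 0.232 for dbR libraries (SD, n = 3 each), with no overlap of either db/db group with the control group. These ratios were chosen after the values of the genes were seen. The other 6 nuclear subunits of complex III, Uqcr10 (the member with the highest level, mean FPKM 928) among them, were not called with the deposited FPKM, where the median of all 9 was 0.050. After scaling to the nuclear sum 6 of the 9 were called higher, Uqcr11, Uqcrfs1, Uqcrh and Uqcrq in addition to 2 of the genes above, beside 24.0% of all genes.

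**Figure D4:**
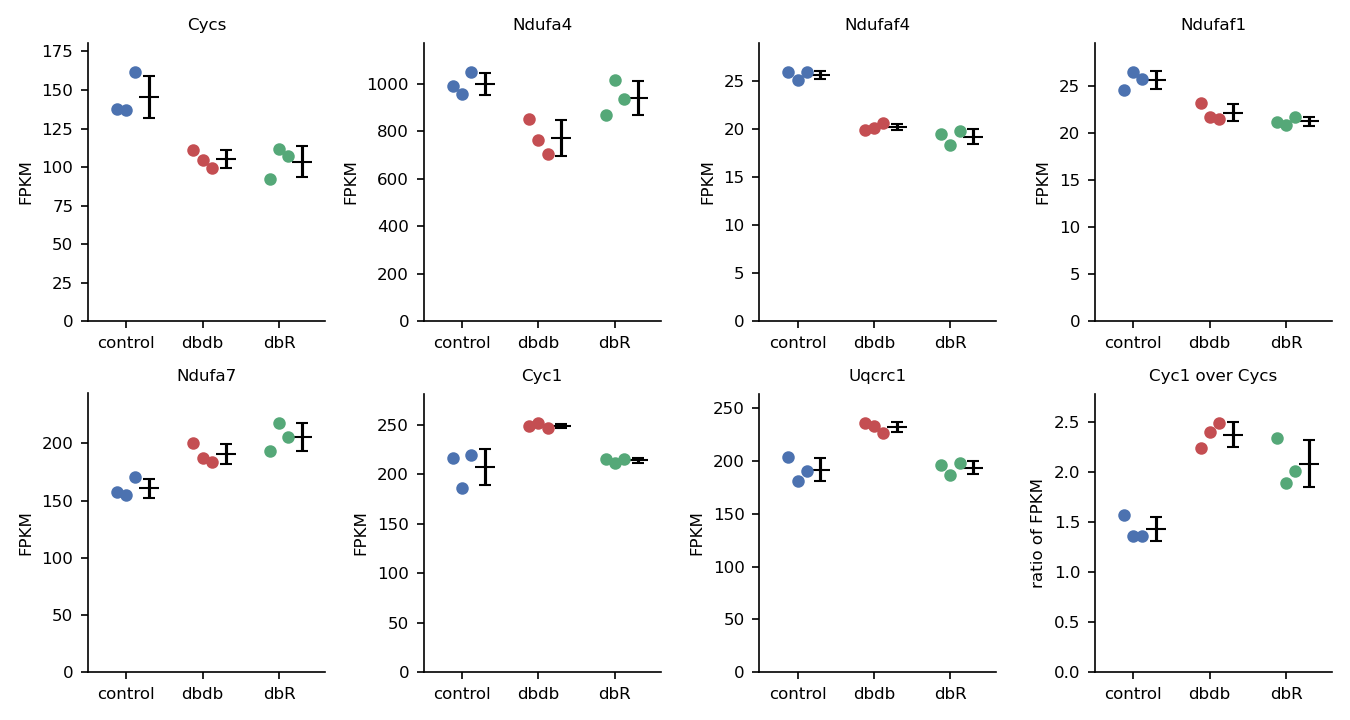
FPKM of the 7 nuclear-encoded genes called in dbdb vs. control, and in the last panel the ratio of Cyc1 to Cycs. Each point is a library of control, dbdb or dbR mice, the bar is the mean ± SD (n = 3), and all vertical axes start at 0. Cycs, Ndufaf4 and Ndufaf1 are low in dbdb and dbR mice alike. With the FPKM as deposited, Cyc1 and Uqcrc1 are high in dbdb mice and within the control range in dbR mice, which for Cyc1 does not hold after scaling to the nuclear sum.

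The promoters of the genes that moved are shown because the nuclear respiratory factor NRF1, a regulator of many respiratory chain genes, binds a palindromic site. The windows are those of RefSeq (GRCm38.p6), from 250 bases before to 50 bases after the transcription start, 5′ to 3′ in the direction of the gene. Capitals mark matches to the NRF1 letters, GCGCA and GCGC with 1 base between them, in Uqcrc1 (chr9:108936398-108936697 on the plus strand) and Ndufaf4 (chr4:24897833-24898132 on the plus strand), and the match to the cAMP response element TGACGTCA, bound by CREB, in Cycs (chr6:50566520-50566819 on the minus strand).
Cycs promoter: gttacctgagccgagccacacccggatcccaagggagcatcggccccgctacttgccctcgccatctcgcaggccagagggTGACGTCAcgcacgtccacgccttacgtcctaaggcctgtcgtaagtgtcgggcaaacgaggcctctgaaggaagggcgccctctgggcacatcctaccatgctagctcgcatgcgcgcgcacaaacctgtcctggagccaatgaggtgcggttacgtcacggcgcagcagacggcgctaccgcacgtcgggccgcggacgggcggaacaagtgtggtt
Uqcrc1 promoter: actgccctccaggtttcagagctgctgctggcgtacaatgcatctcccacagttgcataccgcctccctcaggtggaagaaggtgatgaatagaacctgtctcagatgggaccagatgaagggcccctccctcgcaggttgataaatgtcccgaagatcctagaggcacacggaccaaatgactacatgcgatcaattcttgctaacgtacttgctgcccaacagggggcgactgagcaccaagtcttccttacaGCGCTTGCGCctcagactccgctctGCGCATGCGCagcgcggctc
Ndufaf4 promoter: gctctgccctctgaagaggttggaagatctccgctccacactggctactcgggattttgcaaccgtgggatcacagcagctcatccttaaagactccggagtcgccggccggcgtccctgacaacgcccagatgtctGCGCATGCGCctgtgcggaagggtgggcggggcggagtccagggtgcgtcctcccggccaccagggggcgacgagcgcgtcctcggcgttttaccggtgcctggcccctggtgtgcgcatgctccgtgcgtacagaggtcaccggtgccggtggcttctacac
Uqcrc1, which rose, held 2 NRF1 matches, Ndufaf4, which fell, held 1, and Cycs, which fell, held no exact match to the NRF1 letters in this window. Only exact matches were counted, and the Cycs window holds tcgcatgcgc, which differs from these letters in 1 base. Whether NRF1 binds there was not tested. Of the other called genes Ndufa4, Ndufa7 and Ndufaf1 held no match to any motif searched, and Cyc1 was not among the windows. RefSeq windows were at hand for 77 of the 94 nuclear-encoded genes, 83 windows in all. All letters were searched on both strands, and those of the oestrogen-related receptors hold AGGTCA, the repeated unit of the PPAR motif. NRF1 letters occurred in 20 of them (24.1%), against 4.60% of 32851 windows of all genes. YY1 letters (AAGATGGCG) occurred in 10.8% against 1.40%, the ETS letters bound by GABPA (CCGGAAGT) in 6.02% against 3.89%, the cAMP response element in 6.02% against 1.79% and the letters bound by oestrogen-related receptors (TCAAGGTCA) in 2.41% against 0.423%. The direct repeat bound by PPAR receptors (AGGTCA, 1 base, AGGTCA) was found in 0 of the 83 windows and in 0.0396% of all.

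Complex I, which oxidises NADH, had 36 nuclear-encoded subunits with a mean FPKM from 27.3 (Ndufa11) to 475 (Ndufa1). With the deposited FPKM 1 of the 36 was called in dbdb vs. control (13.1% of all genes were called higher and 13.4% lower), 18 fold changes lay on each side of 0, and the median was -0.00018. After scaling to the nuclear sum 16 of the 36 were called higher, 33 lay above 0 and the median was 0.16, beside 24.0% of all genes called higher and a median of 0.15. Ndufa7, an accessory subunit, was the one that rose. Its FPKM was 158, 155 and 170.4 in the control mice, 200.5, 187 and 184 in the dbdb mice and 194, 217 and 206 in the dbR mice, with every library of both db/db groups above every control library. The increase was 0.24 on the log2 scale in dbdb mice (standard error 0.066, adjusted p = 0.0227) and 0.35 in dbR mice against control (adjusted p = 0.00435). In dbdb vs. control its call was lost without control replicate 1 or 2 or dbdb replicate 1 or 2 (adjusted p of 0.0751 at most) and with the replicate number as a block. Ndufa5, an accessory subunit, had an FPKM of 181, 203 and 170.2 (control), 252, 202 and 213 (dbdb) and 211, 249 and 237 (dbR). It was called in dbR vs. control (log2 fold change 0.33, standard error 0.10, adjusted p = 0.0380) and not in dbdb vs. control (adjusted p = 0.0793). Ndufv3, a small accessory subunit of the NADH-oxidising module, had an FPKM of 301, 289.9 and 336 in the control mice, 281, 257 and 234 in the dbdb mice and 273, 319 and 325 in the dbR mice, with the dbdb libraries below all control libraries but an adjusted p of 0.0645. Ndufa1, of the membrane arm, was not called (log2 fold change -0.19, standard error 0.10, adjusted p = 0.198).

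Assembly factors of complex I, which help to build the complex and are absent from the finished enzyme, lay much lower than its subunits, with mean FPKM from 9.53 (Ndufaf5) to 23.4 (Ndufaf2). Ndufaf4 had an FPKM of 25.9, 25.1 and 25.9 (control), 19.9, 20.0 and 20.6 (dbdb) and 19.5, 18.3 and 19.8 (dbR). The dbdb and dbR libraries were all below the control libraries, and the dbR libraries all below the dbdb libraries. Ndufaf4 fell in dbdb vs. control (log2 fold change -0.34, standard error 0.054, adjusted p = 0.00154) and in dbR vs. control (log2 fold change -0.41, standard error 0.054, adjusted p = 0.000592), while the difference between dbR and dbdb mice was -0.073 (adjusted p = 0.524). Scaled to the nuclear mRNA sum, its adjusted p in dbdb vs. control was 0.0720. Ndufaf1 had an FPKM of 24.5, 26.4 and 25.7 in the control mice, 23.1, 21.7 and 21.5 in the dbdb mice and 21.2, 20.8 and 21.7 in the dbR mice and fell in both comparisons with control (-0.21 with adjusted p = 0.0225 in dbdb, -0.27 with adjusted p = 0.00735 in dbR), a call that was lost in both after scaling to the nuclear sum (adjusted p = 0.606 and 0.0920). In dbdb vs. control it was also lost with quantile normalization, with the highest transcript of each gene, and without control replicate 2 or 3 or dbdb replicate 2 or 3 (adjusted p 0.0618 to 0.0743 without 1 of these libraries). The other 5 assembly factors were not called, with log2 fold changes between -0.26 (Ndufaf2) and 0.064 (Ndufaf7) in dbdb vs. control.

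Complex II, which takes electrons from succinate, had 4 subunits, none of them called with the deposited FPKM, where 13.1% of all genes were higher and 13.4% lower in dbdb vs. control. Sdha, its flavoprotein, had an FPKM of 310.3, 307 and 314 (control), 327, 325 and 299.9 (dbdb) and 301, 317 and 323 (dbR), and Sdhb, the iron-sulphur subunit with the highest level of the complex, 301, 279 and 352 in the control mice, 344, 320.3 and 304 in the dbdb mice and 298, 346 and 345 in the dbR mice. With the deposited FPKM none of the 4 was called in any comparison, and the log2 fold changes in dbdb vs. control lay between 0.031 and 0.060. After scaling to the nuclear sum all 4 were called higher in dbdb vs. control, with a median of 0.19 beside 0.15 for all genes, of which 24.0% were called higher.

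In complex IV, which reduces oxygen to water, 17 of 20 nuclear-encoded genes passed the filter, and 1 was called in dbdb vs. control with the deposited FPKM, a lower one, where 13.4% of all genes were lower. After scaling to the nuclear sum 8 were called higher and 1 lower, beside 24.0% and 6.65% of all genes. Ndufa4, named as a complex I subunit and now placed in complex IV, had an FPKM of 989, 956 and 1048 (control), 854, 761 and 704 (dbdb) and 868, 1014 and 937 (dbR). The dbdb libraries were below all others, and the dbR libraries overlapped with the control libraries. Ndufa4 fell in dbdb mice (log2 fold change -0.37, standard error 0.095, adjusted p = 0.0174), a call that was lost without control replicate 3, dbdb replicate 2 or dbdb replicate 3 (adjusted p of 0.0581 at most) and with the highest transcript of each gene (adjusted p = 0.158). In dbR vs. dbdb the log2 difference was 0.28 (95% interval 0.072 to 0.49, adjusted p = 0.170). Cox4i1, the regulatory subunit that binds ATP, had an FPKM of 839, 776 and 861 in the control mice, 1034, 926 and 913 in the dbdb mice and 918, 949 and 976 in the dbR mice. Its dbdb and dbR libraries were above all control libraries, yet the adjusted p was 0.0763 in dbdb and 0.10 in dbR vs. control with the deposited FPKM, and 0.00067 and 0.0029 after scaling to the nuclear sum. The ratio of Ndufa4 to Cox4i1, chosen after the values were seen, was 1.21 ± 0.0279 for control, 0.806 ± 0.0303 for dbdb and 0.991 ± 0.0669 for dbR libraries (SD, n = 3 each), and no 2 groups overlapped.

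Rosiglitazone was the only difference by design between dbR and dbdb mice, and no nuclear-encoded gene of the chain was called between them with the deposited FPKM (limma, adjusted p under 0.05), beside 0.564% of all genes called higher and 0.179% lower. At an unadjusted p under 0.05, 7 were higher and 2 lower, where all genes gave 9.43% higher and 8.05% lower. The libraries of the groups did not overlap for 2 higher and 6 lower genes, beside 10.7% and 11.9% of all genes. Marker genes called between the same groups were 3 of 6 for endothelium, 1 of 6 for fibroblasts and smooth muscle, 1 of 6 for the collecting duct and 1 of 3 for adipocytes (Fabp4), all higher in dbR mice, and their part in these values was not tested. The 2 lower genes were Uqcrc1 (log2 fold change -0.26, standard error 0.060, adjusted p = 0.0729) and Cyc1 (log2 fold change -0.22, standard error 0.068, adjusted p = 0.152), and for both every dbR library was below every dbdb library. Scaled to the nuclear mRNA sum, Uqcrc1 had an adjusted p of 0.0495, beside 0.358% of all genes called higher and 0.378% lower. Quantile normalization gave 4 calls, all lower, which were Uqcrc1, Cyc1, Cox5a and Atp5b, beside 1.11% of all genes called higher and 0.502% lower. Cox7a2l, a factor of complex III and IV supercomplexes, had an FPKM of 112, 108 and 113 (control), 113, 108 and 109 (dbdb) and 121, 139 and 129.6 (dbR). The dbR libraries were above all the others (log2 fold change 0.24, standard error 0.060, adjusted p = 0.0867 in dbR vs. dbdb), and the call was made against control (log2 fold change 0.22, standard error 0.060, adjusted p = 0.0228). Ndufb3, an accessory subunit of complex I, had an FPKM of 128, 137 and 135 in the control mice, 136, 121 and 107 in the dbdb mice and 133, 162 and 149 in the dbR mice (log2 fold change 0.29, standard error 0.094, adjusted p = 0.161 in dbR vs. dbdb), with overlapping groups. Of Ndufv3, Cox7b, Cox7c, Ndufa3 and Atp5g2, which followed in the order of p and were all higher in dbR mice on average, the log2 fold changes were 0.25, 0.20, 0.25, 0.27 and 0.19 (adjusted p 0.216 to 0.296), with overlapping groups for all 5. With the deposited FPKM the median half-width of the 95% interval over the 91 genes was 0.20 on the log2 scale, which for a gene of median precision left smaller differences undetectable in this fit at an unadjusted p under 0.05.

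**Figure D5:**
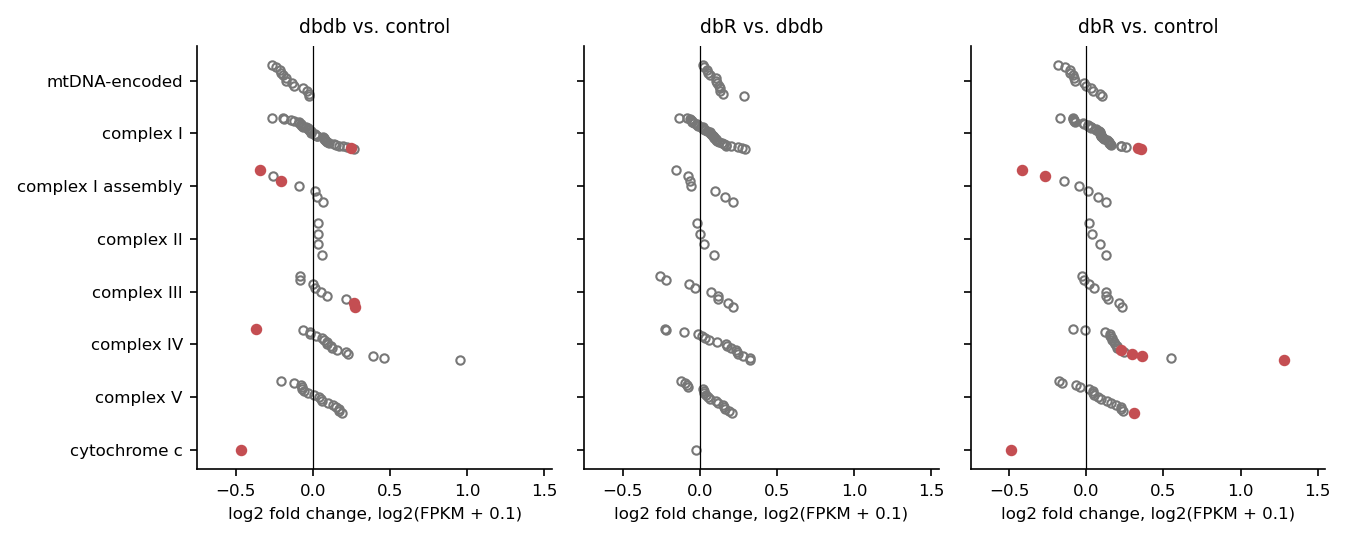
log2 fold change, on the log2(FPKM + 0.1) scale with the FPKM as deposited, of each of the 104 genes that passed the filter, in rows by complex and with the genes of a row in order of their value. Filled red points have an adjusted p under 0.05, the row of complex V includes Atp5s and Atp5sl, and the mtDNA-encoded row lies between -0.26 and -0.025 in dbdb vs. control.

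Against control, dbR mice had 7 nuclear-encoded genes called higher and 3 lower (12.3% and 11.8% of all genes), or 39 and 2 after scaling to the nuclear sum (16.5% and 6.92% of all genes). Without overlap between the groups were 11 higher and 5 lower genes, beside 20.8% and 21.1% of all genes. The comparison shares the control libraries with dbdb vs. control and the dbR libraries with dbR vs. dbdb. Marker genes called higher in dbR vs. control were 5 of 6 for the thick ascending limb and distal tubule, 5 of 6 for the collecting duct, 3 of 6 for endothelium, 2 of 6 for podocytes, 3 of 10 for the proximal tubule (with 1 lower) and 1 of 6 for fibroblasts and smooth muscle, and 2 of 8 for leukocytes were lower. Their part in the results was not tested. Of the 7 higher genes 4 belong to complex IV. Cox6c, the nuclear-encoded subunit of complex IV with the highest level, had an FPKM of 1360.2, 1374 and 1385 (control), 1714, 1451 and 1349 (dbdb) and 1566, 1856 and 1884 (dbR). The control libraries lay close together and all dbR libraries above them (log2 fold change 0.36, standard error 0.11, adjusted p = 0.0426). Cox7b, a small subunit, had an FPKM of 248, 258 and 258 in the control mice, 302, 258 and 254 in the dbdb mice and 292, 333 and 313 in the dbR mice and was called in dbR mice as well (log2 fold change 0.29, standard error 0.080, adjusted p = 0.0238). Cox6b2, an isoform known from testis, had a low level of 4.06, 1.54 and 4.94 (control), 9.17, 4.41 and 5.86 (dbdb) and 8.79, 7.19 and 7.52 (dbR), with the dbR libraries above the control libraries (log2 fold change 1.28, standard error 0.38, adjusted p = 0.0348). Atp5o, the stalk subunit of ATP synthase that gives oligomycin sensitivity, had an FPKM of 384, 358 and 407 in the control mice, 481, 424 and 405 in the dbdb mice and 422, 507 and 496 in the dbR mice (log2 fold change 0.31, standard error 0.095, adjusted p = 0.0406). The calls of Cox6c, Cox7b, Cox6b2, Cox7a2l, Ndufa5 and Atp5o in dbR vs. control were lost without dbR replicate 2 and also without dbR replicate 3. Each of these calls was also lost without at least 1 of the control libraries. Without either of the 2 dbR libraries the count of called nuclear-encoded genes fell from 10 to 4. Over all 14537 genes the calls fell as well, from 1786 higher and 1711 lower to 1290 and 1308 without dbR replicate 2 and to 1362 and 1341 without dbR replicate 3. Cycs, Ndufaf4 and Ndufa7 kept their calls in dbR vs. control with each library left out.

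ATP synthase had 15 nuclear-encoded subunits with mean FPKM from 235 (Atp5g2) to 1414 (Atp5b), and Atp5s and Atp5sl, a coupling factor and a gene like it, were much lower. None was called of the 15 in dbdb vs. control with the deposited FPKM, and 8 were higher after scaling to the nuclear sum, beside 13.1% higher and 13.4% lower of all genes with the deposited FPKM and 24.0% higher after scaling. Atp5b, the catalytic β subunit, had an FPKM of 1464, 1415 and 1547 (control), 1485, 1416 and 1426 (dbdb) and 1285, 1326 and 1362 (dbR) (log2 fold change -0.032, standard error 0.079, adjusted p = 0.799 in dbdb vs. control). Its dbR libraries lay below all dbdb and control libraries. Atp5a1, the α subunit, stood at 789, 732 and 766 in the control mice, 851, 823 and 829.9 in the dbdb mice and 753, 797 and 811 in the dbR mice, with the dbdb libraries above all the others (log2 fold change 0.13, standard error 0.069, adjusted p = 0.189). Atp5g1, Atp5g2 and Atp5g3 make the same mature c subunit of the proton-driven ring. Their mean FPKM in control mice was 412, 220 and 723, and none was called in a comparison with the deposited FPKM (smallest adjusted p 0.083, Atp5g1 in dbR vs. control), while all 3 were called higher in both comparisons with control after scaling to the nuclear sum, beside 24.0% of all genes in dbdb and 16.5% in dbR vs. control.

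Where a subunit has tissue isoforms, the renal cortex held mostly the form known from liver and other non-contractile tissues. Cox4i1 had a mean FPKM of 825 in control mice and Cox4i2, the form of lung and of low oxygen, 0.191. Cox6a1 stood at 828, 721 and 907 in the control mice and the heart and muscle form Cox6a2 at 1.53, 1.48 and 2.00. Cox6a2 was 2.13, 2.90 and 2.02 in the dbdb mice, above each control library, without passing the test (log2 fold change 0.46, standard error 0.17, adjusted p = 0.0682). Cox6b1 stood at 1025, 977 and 1134 in the control mice, Cox8a at 929, 774 and 945 and Cox7a2 at 357, 339 and 404. The muscle form Cox7a1 was measured at 48.6, 42.2 and 55.2 (control), 57.3, 47.7 and 47.8 (dbdb) and 43.6, 61.0 and 62.2 (dbR), and its ratio to Cox7a2 was 0.132 ± 0.00695 for control, 0.137 ± 0.00309 for dbdb and 0.131 ± 0.0150 for dbR libraries (SD, n = 3 each). Ndufa4l2, a paralogue of Ndufa4 known to be induced by low oxygen, had an FPKM of 1.46, 1.21 and 1.50 in the control mice, 1.50, 1.36 and 2.16 in the dbdb mice and 1.65, 2.91 and 1.86 in the dbR mice and was not called (log2 fold change 0.23, standard error 0.22, adjusted p = 0.490 in dbdb vs. control, log2 fold change 0.55, standard error 0.22, adjusted p = 0.102 in dbR vs. control).

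Among 18 regulators of mitochondrial biogenesis, 4 rose and 2 fell in dbdb vs. control with the deposited FPKM, and 6 rose and 0 fell after scaling to the nuclear sum. Of all genes 13.1% rose and 13.4% fell with the deposited FPKM, and 24.0% and 6.65% after scaling. In dbR vs. dbdb 0 were called with the deposited FPKM (limma), with 0 higher and 3 lower at an unadjusted p under 0.05 (9.43% and 8.05% of all genes), and 1 was called lower after scaling to the nuclear sum (Ppara), beside 0.378% of all genes. Ppargc1a, the coactivator PGC-1α that drives the programme, had an FPKM of 24.8, 30.5 and 32.0 (control), 31.7, 31.7 and 28.5 (dbdb) and 34.3, 33.0 and 30.0 (dbR), with overlapping groups (log2 fold change 0.083, standard error 0.10, adjusted p = 0.571). Its partner Esrra, the receptor ERRα, had 39.3, 34.8 and 39.2 in the control mice, 44.0, 47.0 and 49.4 in the dbdb mice and 39.7, 36.8 and 41.4 in the dbR mice and rose in dbdb mice (log2 fold change 0.31, standard error 0.072, adjusted p = 0.0113). The dbR libraries overlapped with the control libraries for Esrra. Ppara, the receptor that controls fatty acid oxidation, rose (log2 fold change 0.78, standard error 0.080, adjusted p = 0.000151), as did Esrrb, another oestrogen-related receptor (log2 fold change 1.06, standard error 0.12, adjusted p = 0.000294) and the low Perm1 (0.90, adjusted p = 0.00707). Gabpa, the DNA-binding subunit of the factor NRF2, fell (log2 fold change -0.31, standard error 0.064, adjusted p = 0.00619), as did Gabpb1, its partner subunit (log2 fold change -0.33, standard error 0.10, adjusted p = 0.0346), but neither was called in dbdb vs. control after scaling to the nuclear sum (adjusted p = 0.107 and 0.174).

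Genes that copy and read mtDNA gave 1 higher and 3 lower of 23 in dbdb vs. control with the deposited FPKM, 2 higher and 0 lower after scaling to the nuclear sum. The shares of all genes were 13.1% and 13.4%, and 24.0% and 6.65% after scaling. Tfam, which packs mtDNA and starts its transcription, had an FPKM of 37.8, 36.3 and 34.2 (control), 33.1, 28.1 and 34.1 (dbdb) and 32.6, 30.7 and 32.5 (dbR) (log2 fold change -0.19, standard error 0.078, adjusted p = 0.101), and Polrmt, the mitochondrial RNA polymerase, 8.83, 8.38 and 8.10 in the control mice, 9.22, 8.05 and 9.74 in the dbdb mice and 7.76, 6.67 and 8.12 in the dbR mice (log2 fold change 0.089, standard error 0.10, adjusted p = 0.534). Tfb2m, the transcription factor that opens the promoter for Polrmt, fell with the deposited FPKM (log2 fold change -0.20, standard error 0.054, adjusted p = 0.0217), as did Mterf1a (log2 fold change -0.48, standard error 0.12, adjusted p = 0.0147), a termination factor, and Rrm2b (log2 fold change -0.39, standard error 0.082, adjusted p = 0.00721), which supplies deoxynucleotides, and Tk2, a mitochondrial thymidine kinase, rose (log2 fold change 0.29, standard error 0.083, adjusted p = 0.0292). The 3 falls were not called after scaling to the nuclear sum (adjusted p of 0.616, 0.0696 and 0.0628). Of 20 genes of mtRNA processing and decay 1 was higher and 3 lower in dbdb vs. control, and 2 and 0 after that scaling, which no longer called the 3 falls, beside the same shares of all genes. Lrpprc, which stabilises mtDNA-encoded mRNAs, stood at 45.7, 48.6 and 47.7 (control), 49.1, 46.8 and 40.6 (dbdb) and 41.0, 40.9 and 41.1 (dbR) and was not called (log2 fold change -0.060, standard error 0.070, adjusted p = 0.568). Fastkd2, an RNA-binding protein of the mitochondrial matrix, fell (log2 fold change -0.33, standard error 0.086, adjusted p = 0.0200), as did the exonuclease Rexo2 (log2 fold change -0.30, standard error 0.070, adjusted p = 0.0127) and Trmt10c, of the enzyme that cuts tRNAs from mitochondrial transcripts (log2 fold change -0.21, standard error 0.062, adjusted p = 0.0321), while Fastk rose (log2 fold change 0.19, standard error 0.057, adjusted p = 0.0340).

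Of 41 assembly factors beside the Ndufaf genes, 2 rose and 8 fell in dbdb vs. control with the deposited FPKM, against 8 higher and 3 lower after scaling to the nuclear sum. Of all genes 13.1% and 13.4% were called with the deposited FPKM, and 24.0% and 6.65% after scaling. Acad9, an assembly factor of complex I, had an FPKM of 26.8, 26.8 and 34.3 in the control mice, 20.3, 18.6 and 17.8 in the dbdb mice and 17.7, 23.0 and 21.9 in the dbR mice, and all dbdb libraries were below all control libraries (log2 fold change -0.62, standard error 0.12, adjusted p = 0.00463). Tmem126b, of the same assembly complex, had 27.3, 29.1 and 27.1 (control), 18.0, 19.5 and 20.3 (dbdb) and 17.5, 19.5 and 21.2 (dbR) and fell in both db/db groups (log2 fold change -0.53, standard error 0.079, adjusted p = 0.00113 in dbdb vs. control). Bcs1l, which inserts the iron-sulphur protein into complex III, had 10.5, 11.0 and 10.1 in the control mice, 7.50, 7.66 and 7.35 in the dbdb mice and 7.33, 8.96 and 7.93 in the dbR mice (log2 fold change -0.48, standard error 0.082, adjusted p = 0.00235). These 3 were called lower after scaling to the nuclear sum as well. Uqcc2, an assembly factor of complex III, rose (log2 fold change 0.40, standard error 0.10, adjusted p = 0.0149) with an FPKM of 48.9, 42.3 and 52.5 (control), 67.9, 62.0 and 59.0 (dbdb) and 53.7, 60.9 and 65.6 (dbR). In dbR vs. dbdb 0 of the 41 were called (limma), and 5 were higher and 2 lower at an unadjusted p under 0.05, where all genes gave 9.43% and 8.05%. The 4 subunits of the chain and of ATP synthase that the tables list under other names gave 0 calls in any comparison (limma, deposited FPKM), and 1 was higher in dbR vs. dbdb at an unadjusted p under 0.05. After scaling to the nuclear sum 3 of the 4 were called higher in dbR vs. control, beside 16.5% of all genes.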

How the data were processed

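Strand-specific RNA-seq libraries, depleted of ribosomal RNA, were made from renal cortex. Per the labels and the methods, the authors aligned the reads to GRCm38 with TopHat (2.0.9), assembled transcripts with Scripture and Cufflinks (2.1.1), and deposited the FPKM of each transcript and library, which rests on Cufflinks' division of reads between transcripts. Groups came from the sample titles. FPKM was summed per gene, and genes with a mean of at least 0.1 were kept (14537). log2(FPKM + 0.1) was fitted with limma (3.58.1, R 4.3.3, variance trend) to all 9 libraries, with two-sided tests and Benjamini-Hochberg adjustment over all genes. Fold changes on this scale understate those of low genes. Coordinates are from GENCODE (GRCm38), where all 107 genes matched by ID, and promoters from RefSeq. Files of lncRNA were not used. Calculations outside R used python 3.11.15, numpy 2.4.6, pandas 2.3.3 and matplotlib 3.10.9.

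The members and the gene lists were chosen with earlier results of these data known. Text names every mtDNA-encoded gene or its range, per comparison the 10 nuclear-encoded genes with the largest absolute fold change among those called or else the smallest unadjusted p, the highest of each complex, tissue isoforms, and of each other list the called genes with the 4 largest changes plus Ppargc1a, Esrra, Tfam, Polrmt and Lrpprc. Further genes, ratios and the motif of CREB were chosen after the values were seen.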

Additional observations from a re-analysis of the deposited data

How the results depend on the processing

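The depth of the libraries is known only as a ratio, and with the deposited FPKM the 95% interval of a nuclear-encoded gene had a median half-width of 0.20 on the log2 scale. The number of called nuclear-encoded genes rests on the scaling, since the FPKM as deposited and the share of nuclear mRNA differ in what they hold fixed. In dbdb vs. control it was 7 with the deposited FPKM, 44 with the libraries scaled to the same nuclear mRNA sum, 44 with the same total sum, 35 with quantile normalization and 24 with the nuclear sum without Kap, in either direction, beside 26.4%, 30.6%, 25.3%, 25.6% and 24.2% of all genes. In dbR vs. control it was 10, 41, 41, 25 and 17 (24.1%, 23.5%, 20.0%, 23.0% and 22.5% of all genes), with 17 at the same 75th percentile (24.4%) and 6 with no filter (18.6%). In dbR vs. dbdb it was 0, then 1 with the nuclear sum, 1 without Kap and 4 with quantile normalization (0.743%, 0.736%, 0.729% and 1.61% of all genes). The nuclear-encoded median in dbdb vs. control was 0.18 with the nuclear and with the total sum and 0.13 with quantile normalization, and the mtDNA-encoded median -0.016, -0.015 and 0.050. Quantile normalization reversed mt-Nd4 (0.31), mt-Nd5 (0.28) and mt-Co1 (0.32) to 3 called mtDNA-encoded genes in dbdb vs. control and mt-Co1 (0.32) to 1 in dbR vs. control, where the mtDNA-encoded median was 0.070. Giving each rank a fixed value is how it is built, and the cause of the shift was not tested.

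Over all genes in dbR vs. dbdb, 108 genes were called, but 31 with no filter, 166 with a mean FPKM of at least 1, 203 with the 75th percentile, 51 with the total sum, 234 with quantile normalization, 49 with the highest transcript of each gene, 18 with no variance trend and 22 with only the 6 libraries of the comparison. The highest transcript of each gene gave an mtDNA share of 31.9% for control and 31.9% for dbdb, and a ratio of 6.33 for dbdb. With mt-Atp8 left out, an alternative chosen after seeing the data like the nuclear sum without Kap, the shares were 15.5%, 15.9% and 16.1% and the ratios 3.67, 3.29 and 3.32 for control, dbdb and dbR.

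Leaving out 1 library at a time gave 3 to 8 called nuclear-encoded genes in dbdb vs. control (3 without dbdb replicate 2) and 4 to 12 in dbR vs. control (4 without dbR replicate 2 or 3, 5 without control replicate 1 or 2), and 2 to 141 genes of all in dbR vs. dbdb (2 without dbR replicate 2, 10 without dbR replicate 3, 31 without dbdb replicate 2, 36 without dbdb replicate 1, 70 without dbR replicate 1). Of all 14537 genes, 1370 were higher and 1453 lower in dbdb vs. control without dbdb replicate 2, against 1899 and 1941 with all libraries. In dbR vs. control the all-gene counts were 1290 and 1308 without dbR replicate 2, 1362 and 1341 without dbR replicate 3, 1534 and 1331 without control replicate 1 and 1322 and 1386 without control replicate 2. With all libraries they were 1786 and 1711. The mtDNA-encoded median ran from -0.23 to -0.079 in dbdb vs. control, from -0.014 to 0.19 in dbR vs. dbdb and from -0.17 to 0.053 in dbR vs. control, and the nuclear-encoded median from -0.020 to 0.080 in dbdb vs. control.

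Samples of the same number showed no sign of deviating together (correlations of -0.175 to 0.0615 over 9 pairs, and -0.108 to 0.168 over 18 pairs of other numbers). The labels do not say whether the numbers pair the mice, and with 3 libraries a group these correlations cannot settle it. A fit with the replicate number as a block called 5 nuclear-encoded genes in dbR vs. control, beside 1545 higher and 1485 lower of all 14537 genes. In dbR vs. dbdb it called 23 of all genes.

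Of the other values of the comparisons 291 stayed within the same range or side of the threshold. Among single named genes 1429 values did so, 68 lost the call, 17 gained one and 4 reversed. Most of these genes, all mtDNA-encoded ones among them, were not called in the main fit and had no call to lose. The 68 losses therefore fall on the few called genes, and the 1429 values do not measure how stable the calls are.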

Other observations

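Genes around the respiratory chain, in lists that the results above do not use, moved in dbdb vs. control as follows. Of 20 genes of the tricarboxylic acid cycle and pyruvate dehydrogenase 4 rose and 1 fell with the deposited FPKM, and 10 rose and 1 fell with the libraries scaled to the same sum of nuclear mRNA. Of all genes 13.1% rose and 13.4% fell with the deposited FPKM, and 24.0% and 6.65% after that scaling, which also holds for the lists that follow. The kinases that switch off pyruvate dehydrogenase changed in both directions. Pdk4 had an FPKM of 1.20, 1.50 and 1.30 in the control mice, 3.99, 3.64 and 5.21 in the dbdb mice and 1.95, 2.18 and 2.14 in the dbR mice (log2 fold change 1.60, standard error 0.14, adjusted p = 7.33e-05 in dbdb vs. control). It fell in dbR vs. dbdb (log2 fold change -0.98, standard error 0.14, adjusted p = 0.0254), and the 3 groups did not overlap. Pdk1 had 6.09, 5.44 and 5.63 (control), 17.2, 15.4 and 15.5 (dbdb) and 15.0, 15.7 and 15.4 (dbR) (log2 fold change 1.47, standard error 0.071, adjusted p = 5.65e-06) and Pdk2 118, 114 and 101 in the control mice, 183, 164 and 137 in the dbdb mice and 151, 130.0 and 146 in the dbR mice (log2 fold change 0.53, standard error 0.11, adjusted p = 0.00579), and both were also called higher in dbR vs. control. Pdk3, another of these kinases, had 30.5, 28.9 and 38.7 (control), 13.1, 14.6 and 14.4 (dbdb) and 13.1, 13.8 and 13.6 (dbR) and fell (log2 fold change -1.20, standard error 0.10, adjusted p = 4.95e-05).

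Of 14 genes of the outer and inner membrane transport 2 rose and 3 fell in dbdb vs. control, or 6 and 0 after scaling to the nuclear sum. Ucp2, an uncoupling protein, had an FPKM of 12.3, 10.6 and 9.23 in the control mice, 22.2, 18.9 and 24.0 in the dbdb mice and 16.5, 16.3 and 17.1 in the dbR mice (log2 fold change 1.01, standard error 0.11, adjusted p = 0.000207), and Slc25a4, an exchanger of ADP and ATP, 179.7, 173 and 177 (control), 237, 234 and 216 (dbdb) and 194, 229 and 217 (dbR) (log2 fold change 0.38, standard error 0.071, adjusted p = 0.00413). Vdac3, a channel of the outer membrane, fell (log2 fold change -0.30, standard error 0.064, adjusted p = 0.00811), as did the import proteins Tomm22 (-0.28, adjusted p = 0.0392) and Timm44 (-0.21, adjusted p = 0.0385), and these 3 were not called after scaling to the nuclear sum. Of 15 genes of the mitochondrial stress response 1 rose and 2 fell, or 2 and 2 after that scaling. The chaperone pair Hspd1 and Hspe1 fell, Hspd1 with 329, 358 and 384 in the control mice, 266, 249 and 227 in the dbdb mice and 245, 259 and 264 in the dbR mice (log2 fold change -0.53, standard error 0.080, adjusted p = 0.00120) and Hspe1 with 236, 266 and 273 (control), 204, 174 and 165 (dbdb) and 217, 235 and 226 (dbR) (log2 fold change -0.51, standard error 0.088, adjusted p = 0.00252). Gdf15, a secreted stress hormone, was low, with 0.763, 1.37 and 1.45 in the control mice, 2.31, 2.21 and 3.96 in the dbdb mice and 1.04, 1.39 and 1.33 in the dbR mice (log2 fold change 1.17, standard error 0.27, adjusted p = 0.0105). In dbR vs. dbdb 0 stress genes were called with the deposited FPKM (limma), with 1 higher and 5 lower at an unadjusted p under 0.05 (9.43% and 8.05% of all genes), and 1 (Psat1) was called lower after scaling to the nuclear sum, beside 0.378% of all genes.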
